A study of Rattus norvegicus with 9 samples.

Results

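Fos, Fosb, Jun and Junb, 4 genes of the AP-1 transcription factor family among 10411 named on the array, were followed in the prefrontal cortex of 9 untreated rats. They were taken as the probe sets whose only gene symbol in the annotation of the array platform is one of these names, which gave 7 probe sets among 15866, and 6 of the 7 were among the 9520 bright enough to be tested. Fos had 2 probe sets, Jun had 3, and Fosb and Junb had 1 each. The probe set with the highest mean stands for its gene below. All rats were male Lewis animals, an inbred strain, of 200 to 250 g, housed singly, given no treatment, and killed 12 days after the last behavioural test. They form 1 group, drawn from an experiment in which 20 rats were tested, and each was profiled on 1 Affymetrix expression array. Per the labels, each rat was scored for startle, locomotion, the plus maze and sugar feeding, without units, while the series design lists 3 tests and leaves the plus maze out. The study's title asks how brain mRNA relates to behaviour between individuals of an inbred strain.

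Fos proteins pair with Jun proteins through a leucine zipper, and the pair binds the AP-1 element TGAGTCA in the control regions of other genes. The 4 genes are immediate early genes: in neurons, synaptic activity switches them on through kinases that act on factors such as SRF and CREB, with no new protein needed, and their transcripts are short-lived. In cortex they are widely used as markers of recent neuronal activity, and Fosb also yields a shortened, more stable protein by alternative splicing.

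The promoter of Junb is shown because Junb varied most between rats. In the RefSeq promoter table of build GRCr8, 2 of the 4 genes, Fosb and Junb, had an entry. The 250 bases before the start of Junb lie at chr19:40080876-40081125 on the plus strand, upstream of the annotated gene, with the capitals marking TGACG, a part of the cAMP response element that CREB binds:
Junb: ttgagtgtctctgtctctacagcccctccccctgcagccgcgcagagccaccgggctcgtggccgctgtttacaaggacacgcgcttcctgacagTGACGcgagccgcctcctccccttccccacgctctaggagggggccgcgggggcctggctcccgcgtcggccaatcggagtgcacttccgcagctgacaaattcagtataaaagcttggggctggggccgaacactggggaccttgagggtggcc
The match lay 155 to 151 bases before the start, and TGACG stood on either strand in 18.2% of 33469 promoters of the table. The whole cAMP response element TGACGTCA (1.59% of promoters), the AP-1 element TGAGTCA (4.05%), the E-box CACGTG (5.59%), the GC box GGGCGG (30.5%) and the CArG box bound by SRF (1.50%) were also searched on both strands, and none of their letters occurred in this window. TGACG is contained in TGACGTCA, so the 2 searches overlap. The same window of Fosb held none of the letters searched, but all 250 of its bases lie inside the annotated gene.

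The arrays of rats 8 and 9 stood apart: they scored 35.6 and 30.2 on the leading principal component (49.6% of the variance), and rat 7, the highest of the other 7, scored -1.62. Results are therefore given with and without rats 8 and 9. The cortical markers Slc17a7, Snap25, Camk2a and Nrgn were among the probe sets tested and Tbr1 was not, while Drd1, Drd2, Adora2a, Rgs9 and Tac1 of striatum, Omp, Th and Slc17a6 of olfactory bulb and Ttr, Kl, Kcnj13, Otx2 and Prlr of choroid plexus fell below the filter. Each of these 3 neighbouring tissues also had 1 listed marker above it: Ppp1r1b of striatum with a mean log2 value of 7.74, Cdhr1 of olfactory bulb with 3.27 and Folr1 of choroid plexus with 3.48. In bulk tissue, fewer cells that express a gene and less RNA per cell cannot be told apart. With 1 array per rat, the spread between rats also holds technical differences between arrays, and 9 arrays set the precision of what follows.

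Fos and Junb spanned wider ranges between these untreated rats than Fosb and Jun, whose SD was near the middle of all probe sets tested. Fos, which binds DNA as a dimer with a Jun protein, had a lowest log2 value of 6.75 in rat 2, a median of 7.44 and a highest value of 9.10 in rat 7. Rat 9 followed with 8.25 and rat 3 with 7.71, so 2 rats stood above the other 7, which lay within 1 log2 unit. The mean of Fos was 7.57 ± 0.72 (SD, n = 9), the span between the lowest and the highest rat was 5.09-fold, and its SD was larger than that of 98.2% of the probe sets tested. Junb, a Jun protein that activates transcription less strongly than Jun, had its lowest log2 value of 4.32 in rat 1, a median of 5.55 and its highest value of 7.53 in rat 9. Rat 7 had 7.27 and rat 8 had 6.50, and the second lowest value was 5.34 in rat 2. Rats 9, 7 and 8 thus held the top of Junb, and rat 1 lay alone at the bottom. The mean of Junb was 5.94 ± 1.01 (SD, n = 9), with a 9.25-fold span and an SD larger than that of 99.4% of the probe sets tested.

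Fosb had a lowest log2 value of 3.47 in rat 2, a median of 3.82 and a highest value of 4.28 in rat 9, with 4.04 in rat 7 and 3.95 in rat 3. Its mean of 3.86 ± 0.22 (SD, n = 9) was close to the lowest mean that passed the filter, 3.22, and 3 arrays, those of rats 1, 4 and 6, shared the same value. Which Fosb splice form the probe set reads is not given in the sources used here. The span of Fosb was 1.76-fold and its SD exceeded that of 61.5% of the probe sets tested. Jun, which can also pair with itself, had a lowest log2 value of 7.87 in rat 2, a median of 8.09 and a highest value of 8.48 in rat 7, with 8.30 in both rat 3 and rat 6. Its mean was 8.12 ± 0.20 (SD, n = 9), its span 1.52-fold, and its SD exceeded that of 54.0% of the probe sets tested. Rat 2 was lowest for Fos, Fosb and Jun and second lowest for Junb, and rat 7 was among the highest 2 rats for all 4 genes. These levels were not compared between genes, since each comes from its own probes.

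**Figure D1:**
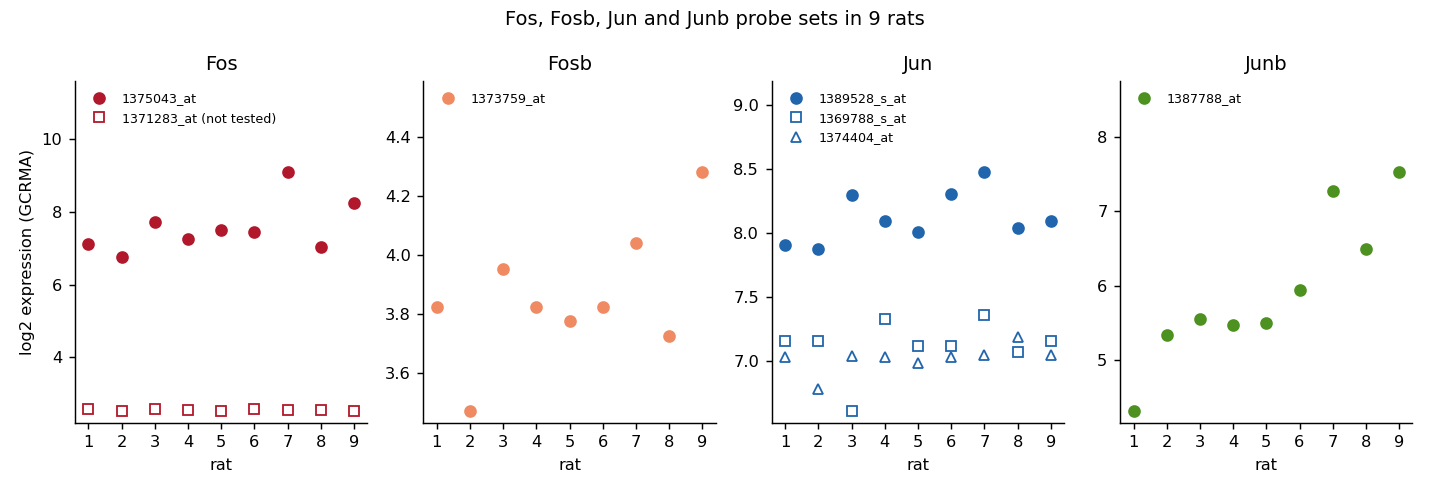
Log2 expression of the 7 probe sets of Fos, Fosb, Jun and Junb (y axis, a separate scale per gene) in each of 9 rats (x axis); filled points are the probe set used for the gene, open points the other probe sets. Fos peaks at 9.10 in rat 7, Fosb at 4.28 in rat 9, Jun at 8.48 in rat 7 and Junb at 7.53 in rat 9, while the open points of Fos stay between 2.53 and 2.59.

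The further probe sets of Fos and Jun did not follow the first. The second Fos probe set lay between 2.53 and 2.59 in the 9 rats, below the filter, and its r with the leading one was -0.0212 (p = 0.962, exact permutation). Its values followed the mean of the probe sets left out as too dim at r = 0.966, and 3 arrays shared 1 value. It was therefore not tested. For Jun, the second probe set by mean had its lowest log2 value, 6.61, in rat 3 and its highest, 7.36, in rat 7, and the dimmest of the Jun probe sets ran from 6.78 in rat 2 to 7.18 in rat 8. The r of the leading Jun probe set was -0.0746 with the second (p = 0.864, exact permutation) and 0.352 with the dimmest (p = 0.366, exact permutation), and the r between the other two was -0.0973 (p = 0.682, exact permutation). Their r with Fos was 0.192 for the second and 0.266 for the dimmest. What follows about Jun therefore holds for its leading probe set alone.

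Rats with more Fos tended to have more Fosb, Jun and Junb, although no pair of genes passed adjustment over the whole table. Their 6 pairwise r were positive and ran from 0.527 to 0.782. By exact permutation over the 9 rats, 3 of the 6 pairs, those with Fos, had an unadjusted p under 0.05, and 4.13% of all probe sets tested reached this with Fos in either direction. The same share was 4.27% with Fosb, 2.93% with Jun and 10.9% with Junb. Benjamini-Hochberg adjustment ran over all probe sets set against the first gene of each pair, Fos, Fosb or Jun. The adjusted exact permutation p was then 1.00 for each pair. With Junb as the fixed gene, the lowest adjusted exact permutation p of any probe set was 0.325.

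Fos and Fosb had r = 0.782 (p = 0.0150, two-sided exact permutation) and rho = 0.864 (p = 0.0045, exact permutation). This r was higher than that of 99.5% of the probe sets tested. It was 0.855 (p = 0.0119, exact permutation) when rats 7 and 9, farthest from the median of Fos, were left out, and 0.800 (p = 0.0607, exact permutation) without rats 8 and 9. Rat 2 was lowest and rats 7, 9 and 3 were the 3 highest for both genes, in a different order.

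Fos and Jun had r = 0.775 (p = 0.0121, exact permutation) and rho = 0.736 (p = 0.0280, exact permutation), above 99.4% of the probe sets tested. Their r was 0.782 (p = 0.0421, exact permutation) without rats 7 and 9 and 0.845 (p = 0.0040, exact permutation) without rats 8 and 9. Without rat 7 alone it was 0.540 (p = 0.162, exact permutation), which did not pass.

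Fos and Junb had r = 0.723 (p = 0.0275, exact permutation) and rho = 0.650 (p = 0.0666, exact permutation). This relation rested on rats 7 and 9, the 2 rats with the highest values of both genes: without them r was 0.114 (p = 0.837, exact permutation). Leaving out rat 7 alone gave 0.626 (p = 0.0982, exact permutation) and rat 9 alone 0.681 (p = 0.0863, exact permutation). Without rats 8 and 9 it was 0.849 (p = 0.0347, exact permutation).

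The 3 pairs without Fos had a lower Pearson r over the 9 rats, though by rho Fosb with Jun and Jun with Junb stood above Fos with Junb. Fosb and Jun had r = 0.527 (p = 0.147, exact permutation) and rho = 0.698 (p = 0.0415, exact permutation). Their r was 0.804 (p = 0.0214, exact permutation) without rats 2 and 9, farthest from the median of Fosb, 0.796 (p = 0.0190, exact permutation) without rats 8 and 9, and 0.335 without rat 2. Fosb and Junb had r = 0.635 (p = 0.0630, exact permutation) and rho = 0.559 (p = 0.128, exact permutation), with 0.389 without rats 2 and 9 and 0.484 without rats 8 and 9. Leaving out 1 rat moved this r between 0.377 without rat 9 and 0.753 without rat 1 (p = 0.0239, exact permutation), and it was 0.714 without rat 8 (p = 0.0408, exact permutation). Jun and Junb had r = 0.543 (p = 0.131, exact permutation) and rho = 0.669 (p = 0.0546, exact permutation). Without rats 2 and 7 their r was 0.276, without rats 8 and 9 it was 0.835 (p = 0.0056, exact permutation), and it ran from 0.329 without rat 7 to 0.711 without rat 9 (p = 0.0443, exact permutation).

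**Figure D2:**
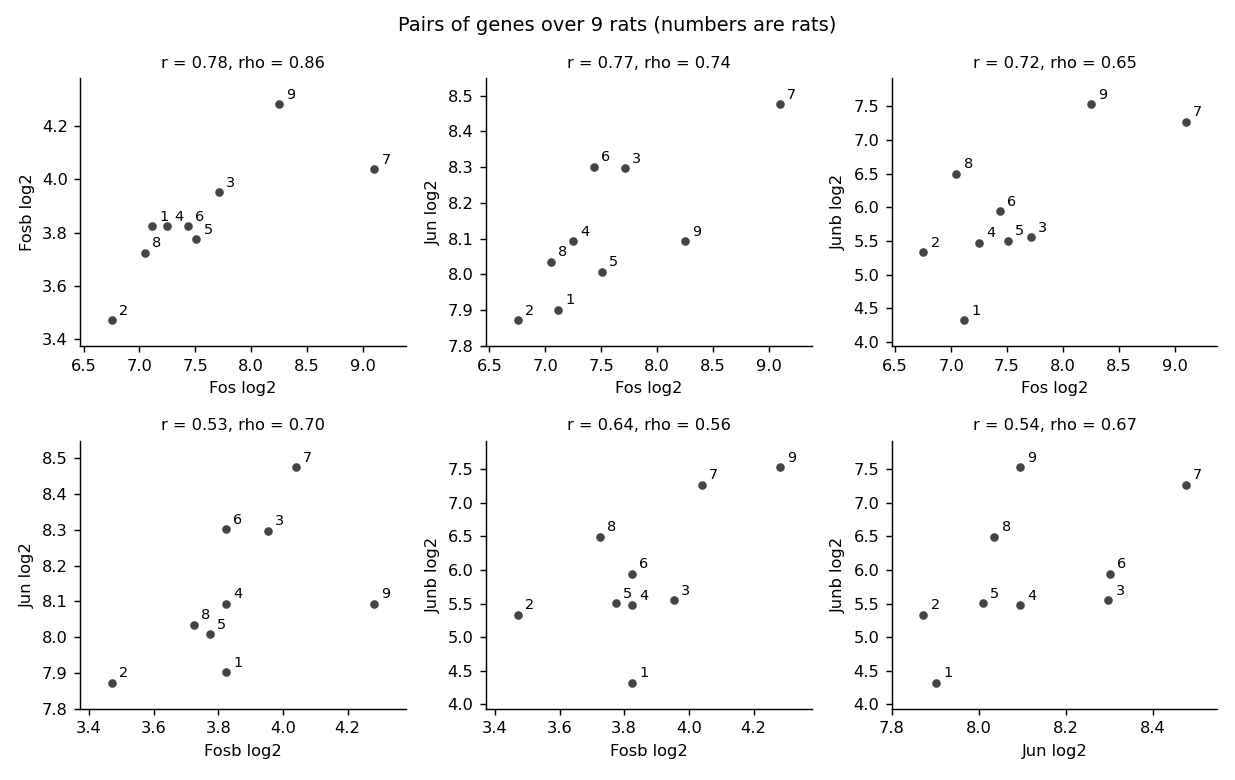
Each panel sets the log2 values of 2 of the 4 genes against each other over 9 rats, with the rat number beside each point and Pearson r and Spearman rho above. All 6 r are positive, from 0.527 for Fosb and Jun to 0.782 for Fos and Fosb, and rats 7 and 9 lie at the upper right of the panel of Fos and Junb.

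The limma fit over the whole table gave the sizes of these relations as slopes per SD of the gene on the x axis, with standard errors over the 9 rats. Per SD of Fos, Fosb changed by 0.18 ± 0.053 log2 units (SE, limma adjusted p = 0.730), Jun by 0.16 ± 0.049 (limma adjusted p = 0.756) and Junb by 0.73 ± 0.23 (limma adjusted p = 0.756). Of the 5 other probe sets of the 4 genes, 0 reached a limma adjusted p under 0.05, where 0.0% of the table did. At an unadjusted limma p under 0.05, 3 of 5 had a positive slope on Fos, against 1.58% of the table. On Fosb this was 2 of 5 (1.71% of the table), on Jun 1 of 5 (1.22%) and on Junb 2 of 5 (5.71%), with 0 of 5 adjusted on each, where again 0.0% of the table passed. For the slopes on Junb, the limma adjusted p was 0.290 for Fos, 0.378 for Fosb and 0.457 for Jun. These fits and the correlations above use the same values.

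Against behaviour the 4 genes gave no relation that passed adjustment, and 15 of the 16 r of their leading probe sets were negative. Over all 6 probe sets tested, 18 of 24 slopes were negative. The other Jun probe sets had positive slopes on locomotion and sugar feeding, and the second by mean also on the plus maze. Over all probe sets tested the median slope was 0.021 log2 units per SD for startle, -0.010 for locomotion, 0.011 for the plus maze and -0.003 for sugar feeding. The share of negative slopes over the table is not given here. The 4 genes correlate with each other and the rats are the same, so the 16 signs are not independent. With startle, locomotion, plus maze and sugar feeding, 0 of the 6 members' probe sets had a limma adjusted p under 0.05 for any behaviour, as for 0.0% of the table. At an unadjusted limma p under 0.05 there was 1 probe set for locomotion (1.96% of the table), 1 for the plus maze (2.99%) and 0 for startle (13.2%) and for sugar feeding (1.4%).

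The plus maze gave the relation of Fosb with the lowest p. The labels give rats 2 and 6 a plus maze value of 18.7 and rats 3 and 9 a value of 0. Fosb was lowest in rat 2, highest in rat 9 and among the highest 3 in rat 3. It had r = -0.670 (p = 0.0456, exact permutation, adjusted over all probe sets 0.999) and rho = -0.718 (p = 0.0348, exact permutation). The slope was -0.15 ± 0.061 log2 units per SD of the plus maze (SE, limma adjusted p = 0.999). It was -0.083 without rat 2 and -0.058 with array quality weights. Without rats 2 and 6, farthest from its median, r was -0.626 (p = 0.130, exact permutation), and without rats 8 and 9 it was -0.683 (p = 0.0881, exact permutation), so the relation did not hold at the threshold in either set of 7.

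Fos with the plus maze had r = -0.540 (p = 0.116, exact permutation) and rho = -0.798 (p = 0.0139, exact permutation), with a slope of -0.39 ± 0.20 (SE, limma adjusted p = 0.999). The 3 rats with the highest Fos, rats 7, 9 and 3, had plus maze values of 2.3, 0 and 0, and rat 2, the lowest, had 18.7. Rat 6, with the same plus maze value as rat 2, had the median Fos value. The r was -0.557 (p = 0.200, exact permutation) without rats 2 and 6 and -0.520 (p = 0.251, exact permutation) without rats 8 and 9. For Jun and Junb the r with the plus maze was -0.275 (p = 0.476, exact permutation) and -0.369 (p = 0.330, exact permutation).

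Locomotion gave the largest r of the 16, with Jun. Rat 1 had the highest locomotion, 1102, and the second lowest Jun, 7.90, while rats 3, 6 and 7, with the 3 lowest locomotion values of 536, 634 and 635, had the 3 highest Jun values. The r was -0.723 (p = 0.0276, exact permutation, adjusted over all probe sets 1.00) and rho was -0.611 (p = 0.0869, exact permutation). The slope was -0.14 ± 0.053 log2 units per SD of locomotion (SE, limma adjusted p = 1.00). Once rats 1 and 3, the extremes of locomotion, were left out, r was -0.646 (p = 0.112, exact permutation), and without rats 8 and 9 it was -0.724 (p = 0.0486, exact permutation). The other Jun probe sets had r of the opposite sign with locomotion, 0.339 (p = 0.355, exact permutation) for the second by mean and 0.166 (p = 0.672, exact permutation) for the dimmest. For Fos, r with locomotion was -0.475 (p = 0.195, exact permutation), for Fosb -0.225 (p = 0.561, exact permutation) and for Junb -0.352 (p = 0.353, exact permutation). The r of Junb was -0.0346 without rats 1 and 3 and -0.705 without rats 8 and 9.

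Startle went with Junb at r = -0.599 (p = 0.0867, exact permutation) and rho = -0.533 (p = 0.148, exact permutation), which did not pass. The slope was -0.60 ± 0.27 log2 units for each SD of startle (SE, limma adjusted p = 0.379). With the first principal component of the arrays as a covariate it was -0.34 (limma adjusted p = 0.660). Startle itself had r = -0.533 with that component. Rat 1, lowest for Junb, had a startle value of 458.6, and rats 9, 7 and 8, highest for Junb, had 230, 153.7 and 67.7. Without rats 1 and 3, farthest from the median of startle, r was -0.371 (p = 0.408, exact permutation), and without rats 8 and 9 it was -0.597 (p = 0.161, exact permutation). Startle had r = -0.210 (p = 0.599, exact permutation) with Fos, 0.000559 (p = 0.999, exact permutation) with Fosb and -0.0147 (p = 0.970, exact permutation) with Jun. With sugar feeding, the r was -0.342 (p = 0.350, exact permutation) for Fos, -0.0820 (p = 0.817, exact permutation) for Fosb, -0.332 (p = 0.388, exact permutation) for Jun and -0.149 (p = 0.707, exact permutation) for Junb. The r of Fosb with sugar feeding was 0.185 without rats 4 and 8, farthest from its median.

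**Figure D3:**
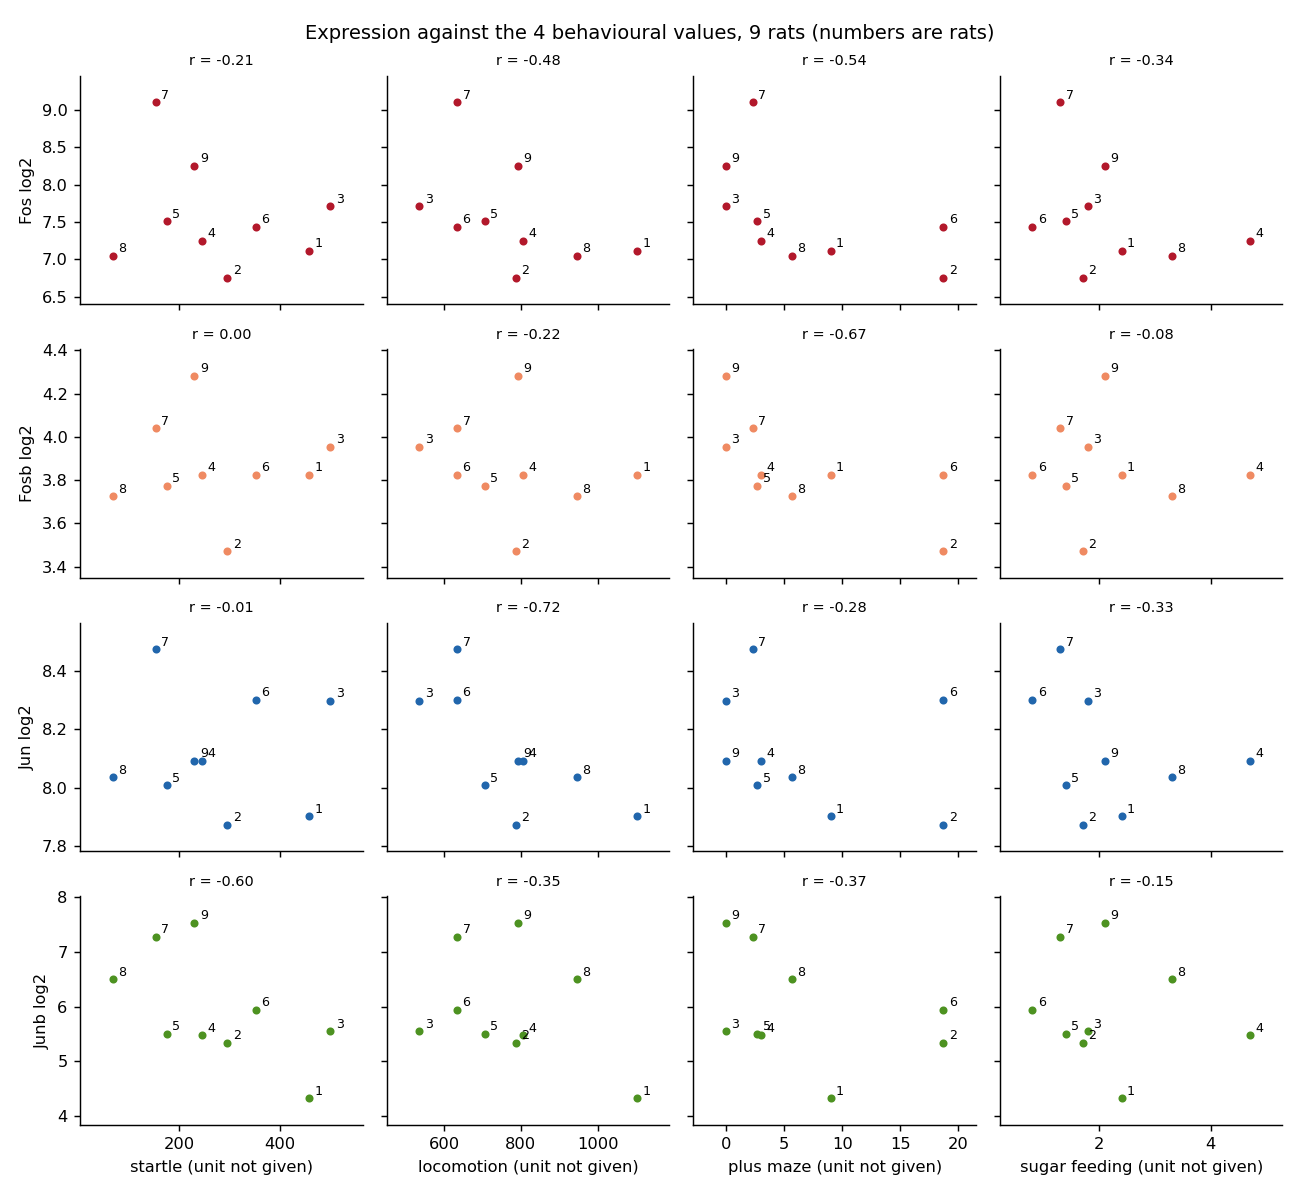
Log2 expression of Fos, Fosb, Jun and Junb (rows) against startle, locomotion, plus maze and sugar feeding (columns, units not given in the labels) in 9 rats, with the rat number beside each point and Pearson r above each panel. The r farthest from 0 is -0.723, for Jun with locomotion, and 15 of the 16 are negative.

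The genes whose pattern over the 9 rats was most like that of each of the 4 were taken by Pearson r among 6769 genes with a usable symbol, and since they were chosen for it their r is a description. For Fos they were Atrx, a chromatin remodeller (r = 0.955), Sik1, a salt-inducible kinase (0.916), Arhgap44, a GTPase-activating protein (0.913), Khdrbs1, an RNA-binding protein (0.891), and Nr4a1, an orphan nuclear receptor (0.875). For Fosb they were Egr4, a zinc finger factor (0.922), Trim2, a ubiquitin ligase (0.908), Cx3cl1, the chemokine fractalkine (0.878), Card19 (0.874) and Dnajc1, a J-domain co-chaperone (0.868). For Jun they were Patz1, a zinc finger repressor (0.899), Sec61a2, of the protein channel of the endoplasmic reticulum (0.896), Brd2, a bromodomain protein (0.893), Ctbs, a lysosomal chitobiase (0.872), and Maml1, a Notch co-activator (0.861). For Junb they were Unc5a, a netrin receptor (0.950), Chrm4, a muscarinic acetylcholine receptor (0.939), Egr2, a zinc finger factor (0.936), Pianp (0.930) and Per1, a clock gene (0.925). None had a limma adjusted p under 0.05 over the table. The lowest adjusted p was 0.0631 for Atrx with Fos, where the slope was 0.68 ± 0.074 log2 units per SD of Fos (SE, n = 9), and 0.103 for Unc5a, Egr2 and Per1 with Junb. Leaving out rats 2 and 9 turned the r with Fosb to -0.116 for Card19 and -0.407 for Dnajc1.

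Of a list of 56 genes that neuronal activity is known to induce, 47 were on the array and 35 were tested, and many of its members had positive slopes on Fos and on Junb, none past adjustment over the 9 rats. On Fos, 25 of the 35 had a positive slope, where 38.8% of the table did, and the median slope was 0.058 log2 units per SD of Fos against -0.013 over all probe sets tested. At an unadjusted limma p under 0.05, 9 of 35 (25.7%) had a positive slope on Fos and 0 a negative one, against 1.58% and 3.72% of the table, and 0 had an adjusted one under 0.05. The 9 were Nr4a1, Egr2, Dusp1, Sik1, Tiparp, Arc, Egr4, Egr1 and Csrnp1. On Junb, 20 of the 35 had a positive slope and 15 a negative one, where 32.3% of the table had a positive one. At an unadjusted limma p under 0.05, 15 of 35 (42.9%) had a positive slope on Junb and 0 a negative one, against 5.71% and 7.35% of the table, and again 0 passed adjustment. The median slope on Junb was 0.064 against -0.031 over all probe sets tested. On Fosb and on Jun the count was 5 of 35 (14.3%) each, with 0 adjusted, against 1.71% and 1.22% of the table.

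These counts moved with single rats. Without rat 7 the count on Fos was 4 of 35 (11.4%), against 1.36% of the table in that fit. Without rats 8 and 9 it was 10 (28.6%, against 4.36%). Of these 10, 2 passed adjustment in limma, Egr2 and Dusp6, a phosphatase of MAP kinases, where 6 probe sets of the table did. On Junb it stayed between 11 and 15 when each rat was left out in turn. The share of the table then ran from 3.31% without rat 9 to 8.77% without rat 7. Without rats 8 and 9 the count on Junb was 11 (31.4%, against 3.91%). Egr2 passed adjustment on Junb without rat 1, where 8 probe sets of the table did, and Per1 without rat 7, where 1 did. The count on Fosb dropped to 1 without rat 9 (2.86%, against 1.58% of the table) and to 2 without rat 2 (5.71%, against 1.65%). Leaving out rat 6, or rats 8 and 9, gave 3 on Fosb (8.57%), against 1.36% and 2.80% of the table. Leaving out rat 8 alone gave 9 (25.7%, against 5.67%). For Jun the count was 1 once rat 7 was left out (2.86%, against 1.76% of the table). It was 3 without rat 1 (8.57%, against 1.34%) and 9 without rats 8 and 9 (25.7%, against 2.55%).

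**Figure D4:**
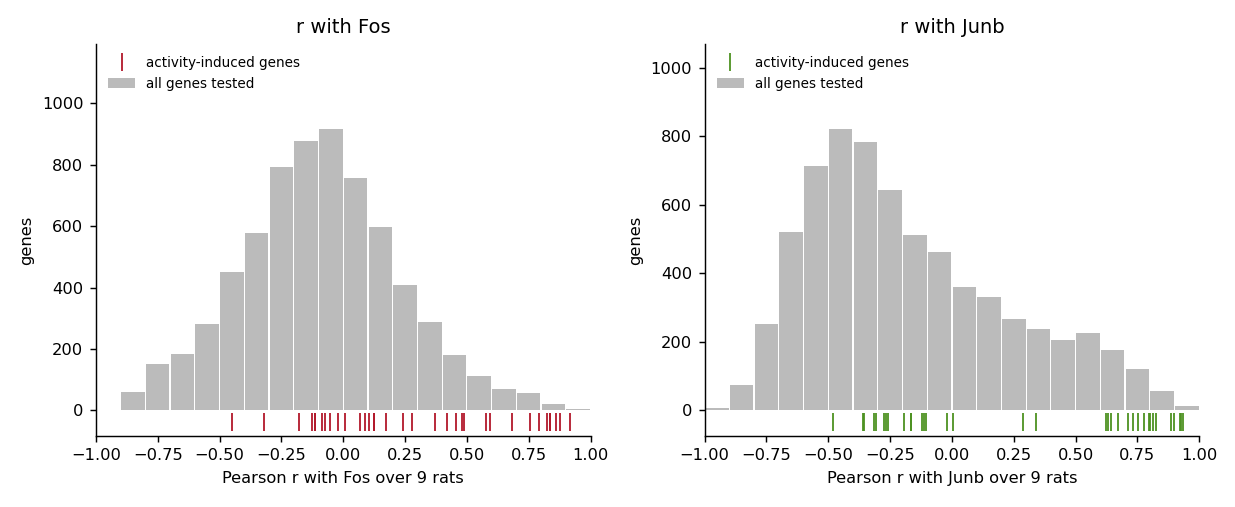
Grey bars count all genes tested, 1 probe set each, by their Pearson r with Fos (left) or Junb (right) over 9 rats, and the ticks under the bars mark the 35 activity-induced genes. On the Junb side 15 of the 35 had an unadjusted limma p under 0.05 with a positive slope, and their ticks lie at the right. Of all probe sets tested, 5.71% did.

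Nr4a1 had its lowest log2 value of 7.63 in rat 1, a median of 8.44 and its highest value of 9.84 in rat 7. Its slope on Fos was 0.59 ± 0.11 log2 units per SD (SE, n = 9, limma adjusted p = 0.679), and its r was 0.939 without rats 8 and 9 and 0.402 without rats 7 and 9. Egr2 ran from 4.54 in rat 2 through a median of 5.04 to 6.57 in rat 7, with a slope of 0.63 ± 0.14 on Fos (limma adjusted p = 0.679), and its r of 0.835 became 0.978 without rats 8 and 9 and 0.282 without rats 7 and 9. Dusp1, a phosphatase that switches off MAP kinases, ran from 7.01 in rat 1 through 7.65 to 8.33 in rat 7, with a slope of 0.30 ± 0.070 on Fos (limma adjusted p = 0.679). These 3 genes were highest in rat 7, as Fos was, and their relation with Fos was weaker without rats 7 and 9.

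Sik1 had a slope of 0.13 on Fos and Tiparp, of the poly(ADP-ribose) polymerase family, 0.24. Arc, a regulator of synaptic AMPA receptors, ran from 7.97 in rat 1 through 9.12 to 9.98 in rat 7, with a slope of 0.50 ± 0.15 on Fos (limma adjusted p = 0.687) and an r of 0.753. On Junb its r was 0.924 and its slope 0.61 ± 0.087 (limma adjusted p = 0.103). Egr2 had a slope of 0.71 ± 0.091 on Junb. Per1, with 3.75 in rat 1, a median of 4.97 and 6.20 in rat 9, had a slope of 0.61 ± 0.087 on Junb (limma adjusted p = 0.103) and 0.32 ± 0.19 on Fos (limma adjusted p = 1.00). Rats 1 and 2 were the lowest 2 and rats 7 and 9 the highest 2 for Junb, Egr2 and Arc. Homer1, a scaffold of the synapse in the same list, was chosen after its values were seen: its log2 value was 8.86 in rat 7, where Fos was highest, 8.67 in rat 2, where Fos was lowest, and 10.26 at its highest in rat 3, and its r with Fos was -0.084.

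**Figure D5:**
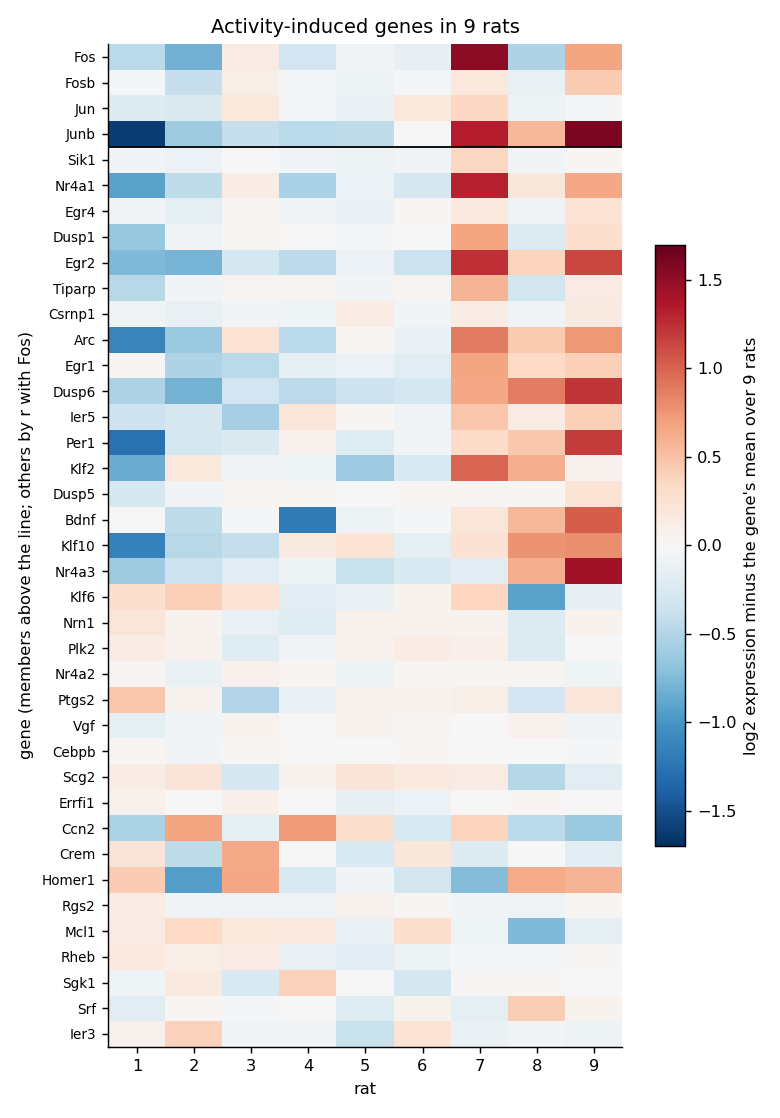
Log2 expression minus the gene's own mean over 9 rats (colour) for Fos, Fosb, Jun and Junb above the line and the 35 activity-induced genes tested below it, ordered by r with Fos, with rats in columns. Rats 7 and 9 are red and rats 1 and 2 blue for Fos, Junb, Nr4a1, Egr2 and Arc, and Srf and Ier3 at the bottom show the lowest r with Fos.

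In the RefSeq promoter table, 28 of these 35 genes had 37 promoters, searched over the 250 bases before each start. TGACG stood in 21 of the 37 (56.8%), against 18.2% of 33469 promoters of the table. The CArG box stood in 5 (13.5%, against 1.50%), TGACGTCA in 6 (16.2%, against 1.59%) and CACGTG in 5 (13.5%, against 5.59%). GGGCGG stood in 22 (59.5%, against 30.5%) and TGAGTCA in 0 (against 4.05%). In Egr2 the CArG box read CCATATATGG and lay 83 to 74 bases before the start, in a window that lies inside the annotated gene. The counts are per promoter, so some genes count more than once, and no count per gene is given. These are matches of letters in a window, with no data on binding.

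The other AP-1 proteins were poorly measured. Of 15 further family genes, 11 were on the array and 4, Maf, Mafg, Atf2 and Atf4, were tested, while Fosl1, Fosl2, Jund, Atf3, Batf3, Jdp2 and Mafk fell below the filter. On Fos, 0 of the 4 had an unadjusted limma p under 0.05, against 5.29% of the table in either direction. On Junb 1 of 4, Maf, did with a positive slope, where 5.71% of the table did. Its r with Junb was 0.721, with a limma p of 0.0222 and an adjusted p of 0.333. Maf, a large Maf family protein, ran from 6.33 in rat 1 to 6.90 in rat 9.

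Among kinases and factors that act on the 4 genes or their proteins, 34 were listed, 21 were on the array and 19 were tested. On Fos, 1 of 19 (5.26%) had a positive slope at an unadjusted limma p under 0.05, against 1.58% of the table, and 0 passed adjustment. On Junb the count was 2 of 19 (10.5%), against 5.71% of the table, with 0 adjusted. The gene on both sides was Camk2a, a subunit of calcium/calmodulin-dependent kinase II, with 9.65 in rat 2, a median of 10.67 and 12.06 in rat 7 on the log2 scale. Its slope on Fos was 0.56 ± 0.16 (SE, n = 9, limma adjusted p = 0.687) with r = 0.770, and r was 0.953 without rats 8 and 9 and 0.455 without rats 7 and 9. Prkaca, a catalytic subunit of protein kinase A, was the second on Junb with r = 0.788. Srf and Crem, listed both as regulators and as activity-induced genes, and Creb1 had unadjusted limma p between 0.339 and 0.879 on Fos and Junb. Of 19 genes described elsewhere as AP-1 or FosB targets, 16 were on the array and 11 were tested. Camk2a, also in this list, was the 1 of 11 (9.09%) with an unadjusted limma p under 0.05 on Fos. Of the table, 1.58% had a positive slope at this p. On Junb, Camk2a had a positive slope and Penk, the precursor of enkephalins, a negative one with r = -0.690 (limma p = 0.0319, adjusted p = 0.357), with 0 of 11 adjusted on either. At an unadjusted limma p under 0.05, 5.71% of the table had a positive slope on Junb and 7.35% a negative one.

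Measures of the arrays were set beside the 4 genes, 13 for each gene. Over all 9 rats the first principal component went with Junb at r = 0.675 (p = 0.0352, exact permutation, adjusted over the 13 measures 0.458) and rho = 0.750 (p = 0.0255, exact permutation), while its r was 0.178 for Fos, 0.413 for Fosb and -0.017 for Jun. Within the 7 rats other than 8 and 9, it went with Fos at r = 0.921 (p = 0.0085, exact permutation), with Fosb at 0.747 (p = 0.0905, exact permutation), with Jun at 0.802 (p = 0.0151, exact permutation) and with Junb at 0.735 (p = 0.0825, exact permutation). Of these 7, rat 7 scored -1.62, rat 3 scored -6.41 and the rest lay between -12.1 in rat 2 and -10.8 in rat 1. Rat 7 was also highest for Fos and Jun, and r without it is not given here. The component was computed over all 9 rats. With this component as a covariate in limma, the slopes on Fos were 0.16 for Fosb, 0.16 for Jun and 0.63 for Junb, against 0.18, 0.16 and 0.73 without it. The slope of Junb on Fosb was 0.43 with the covariate and 0.64 without it, and none of these passed adjustment in either fit. The log2 difference between the 3 prime and 5 prime control probe sets of Gapdh, a sign of RNA integrity, ran from 0.454 in rat 3 to 0.826 in rat 7. It went with Fos at r = 0.673 (p = 0.0423, exact permutation, adjusted over the 13 measures 0.550) and rho = 0.450 (p = 0.230, exact permutation), with r = -0.218 without rats 7 and 9. The same difference for Actb ran from 2.29 in rat 9 to 3.08 in rat 4. Its r with Fos was 0.105 (p = 0.785, exact permutation), and 0.754 (p = 0.0456, exact permutation) without rats 4 and 9. The part of RNA integrity in the result was not tested. The mean z score of cell type markers had an r with Fos between -0.551 for astrocytes (p = 0.125, exact permutation) and 0.433 for cortical excitatory neurons (p = 0.246, exact permutation) over the 9 rats. Without rats 3 and 7, farthest from the median of the excitatory neuron score, its r with Fos was 0.030 (p = 0.961, exact permutation). Rats 3 and 6 were farthest from the median of the astrocyte score and of the microglia score. Without them, r was -0.946 for Fos with astrocytes (p = 0.0038, exact permutation). In the same 7 rats it was -0.795 for Jun with astrocytes (p = 0.0437, exact permutation) and -0.917 for Fosb with microglia (p = 0.0060, exact permutation). The pairs given without rats 3 and 6 were named because their p was under 0.05, and it was not adjusted over the 13 measures. Over all 9 rats, r was 0.0084 for Jun with astrocytes (p = 0.982, exact permutation) and -0.344 for Fosb with microglia (p = 0.354, exact permutation). The part of these cell types in the results was not tested.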

How the data were processed

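Total RNA of prefrontal cortex from 9 rats was hybridised to 1 Affymetrix array each. Per the submitters' processing notes, R 2.6.2 and GCRMA, which adjusts for background by probe sequence, brings the arrays to a common scale and combines the probes of each set, gave the deposited log2 values. The options used were not given in the sources used here. An identical value on 2 or more arrays occurred in 47.0% of the probe sets tested. There were 15923 probe sets in all. The 57 controls and the lowest 40% by mean of the other 15866 were left out, which kept 9520 with a mean log2 of at least 3.22. The platform annotation gave 12783 probe sets 1 symbol, 312 several, none of them with a member, and 2771 none. RefSeq held 12748 of the Entrez identifiers, and 0 symbols differed. The highest correlation between 2 arrays was 0.998 over the 15866 probe sets other than controls, and no 2 arrays were identical.

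For each behaviour, and for the level of each gene, a slope per SD over the rats was fitted with limma 3.58.1 under R 4.3.3 (lmFit and eBayes, 7 residual degrees of freedom, two-sided, Benjamini-Hochberg over all probe sets, threshold 0.05). The fit was tested on simulated data. The exact permutation tests of correlations were two-sided and enumerated the 362880 pairings of 9 rats or the 5040 of 7 rats. Their smallest p is 2.76e-06 and 0.000198, with Python 3.11.15, numpy 2.4.6, pandas 2.3.3 and scipy 1.17.1. Figures used matplotlib 3.10.9.

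Named genes are all probe sets of the 4 genes, the 5 genes of highest r with each, symbols beginning LOC, RGD, MGC or AABR left out, and up to 6 members per list by smallest limma p on Fos. Names outside this rule complete a count or were chosen after their values were seen. The 4 genes and the lists were chosen with earlier results of these data known. The alternatives tried were a filter at 70% or none, ranks of the behaviour, array quality weights, robust moderation with an intensity trend, repeated quantile normalization, the first principal component as a covariate, leaving out each rat, leaving out rats 8 and 9, and leaving out the 2 rats at the extremes of a measure. Leaving out single rats for the pairs of genes and the counts of list genes was added after seeing the data.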

Additional observations from a re-analysis of the deposited data

Results flagged for a closer look

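In 9 of 45 probe sets checked, 1 rat lay far from the rest by Dixon's ratio, the gap to the nearest rat as a share of the range over the 9 rats, which was past its critical value for 9 samples. Chance gives about 1 in 20 for probe sets chosen without regard to their values. The 45 include genes chosen for their r with a member or for their limma p on Fos. The 9 of 45 therefore cannot be judged against that rate, and no rate over the whole table is given here. Of the members, the second Jun probe set by mean was lowest in rat 3 with a ratio of 0.61, and the dimmest Jun probe set was lowest in rat 2 with a ratio of 0.496. Fos, Fosb, Junb and the leading Jun probe set were not among them. Of the genes named with them, Sik1 was highest in rat 7 (0.686), Cx3cl1, Card19 and Dnajc1 were highest in rat 9 (0.569, 0.679 and 0.575), Srf was highest in rat 8 (0.562), Atf4 was highest in rat 5 (0.571) and Sst was lowest in rat 3 (0.504).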

How the results depend on the processing

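No paired analysis was possible because the 9 rats form 1 group. No probe set of the table passed an adjusted p of 0.05 in the limma fits, apart from these settings: 1 on startle with no filter; on the level of Fos, 1 with quantile normalization again, 250 with array quality weights, 6 without rats 8 and 9, 2 with the first principal component as a covariate and 0 to 1 when each rat was left out (1 without rat 5); on Fosb 0 to 3 (3 without rat 8, 1 without rat 7); and on Junb 0 to 8 (8 without rat 1, 1 without rat 7). With array quality weights 1 member was among those called on Fos, Junb, whose slope was 0.74 (limma adjusted p = 0.0411). The causes were not tested.

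Some slopes, none past adjustment over the 9 rats, changed sign. Junb on locomotion, -0.35 over the 9 rats, was 0.12 without rat 1, and Fos on startle, -0.15, was 0.038 without rat 7. Fosb on startle was -0.032 with quantile normalization, -0.0093 with array weights and -0.021 with ranks, and Jun on the plus maze was 0.047 with array weights. Leaving out each rat gave -0.33 to 0.038 for Fos on startle, -0.035 to 0.025 for Fosb on startle, -0.057 to 0.045 for Jun on startle, -0.53 to 0.12 for Junb on locomotion, -0.13 to 0.0024 for Jun on the plus maze and -0.043 to 0.00035 for Fosb on sugar feeding.

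Correlations crossed the threshold or turned as follows. Leaving out the extreme rats gave -0.130 for Fosb with startle, -0.646 for Jun with locomotion, -0.626 for Fosb with the plus maze, 0.185 for Fosb with sugar feeding, 0.114 for Fos with Junb and 0.804 for Fosb with Jun. Leaving out rats 8 and 9 gave -0.683 for Fosb with the plus maze, 0.800 for Fos with Fosb, 0.796 for Fosb with Jun and 0.835 for Jun with Junb. Fos with Fosb did not cross when single rats were left out, with r from 0.732 to 0.942 (p at most 0.0461, exact permutation). The other pairs crossed without at least 1 rat. Their ranges were 0.540 to 0.852 for Fos with Jun, 0.626 to 0.830 for Fos with Junb and 0.335 to 0.803 for Fosb with Jun. They were 0.377 to 0.753 for Fosb with Junb and 0.329 to 0.711 for Jun with Junb. The count of activity-induced genes on Fos ran from 4, against 1.36% of the table without rat 7, to 12, against 3.41% without rat 8. Of 98 correlations under these settings, 81 kept their direction and side of the threshold and 17 did not. Over all settings on the same probe sets, those at an unadjusted p under 0.05 ran from 890 to 1394 for startle, 121 to 937 for locomotion, 197 to 1158 for the plus maze, 103 to 1329 for sugar feeding, 318 to 1574 for Fos, 376 to 1384 for Fosb, 222 to 491 for Jun and 565 to 1890 for Junb.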
